A study of Neotoma stephensi and Rattus norvegicus with 6 samples.

Results

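The genes that load peptides onto major histocompatibility complex (MHC) molecules, together with the inducible proteasome that cuts those peptides, were compared between the foreguts of Stephens' woodrats and lab rats. The members were every gene whose mouse symbol starts with H2-, the name of the mouse MHC, and a list of 25 further genes of the same pathway. Of these 51 genes, 50 were found among the 15481 genes of the count files, 26 by the H2- prefix and 24 by name. The missing one was Psme2, which encodes the beta subunit of the PA28 proteasome activator. The authors list one mouse Psme2 identifier among the paralogs they removed from their alignment reference, and the gene was not analysed here. Of the 50 genes, 42 passed the filter on low counts (3 or more of the 6 animals at or above 1 CPM, the depth-scaled count) and could be tested.

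The MHC presents fragments of proteins to T cells. In the class I pathway, which nearly every nucleated cell has, proteasomes cut cytosolic proteins, the TAP transporter carries the peptides into the endoplasmic reticulum, and chaperones fit them into a heavy chain paired with beta-2-microglobulin. In the class II pathway, which is mainly found in dendritic cells, macrophages and B cells, an alpha and a beta chain travel with the invariant chain CD74 to the endosome, where cathepsins cut the invariant chain and the DM chaperone exchanges its remnant for an antigenic peptide. Interferon-gamma raises both pathways, through the transactivator CIITA for class II and NLRC5 for class I. In the foregut these genes mark immune surveillance at a squamous lining that meets food and, in woodrats, a dense microbial community.

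Each species was represented by 3 females, and a piece of the fornix ventricularis, the nonglandular part of the stomach, was taken from each. The woodrats (Neotoma stephensi) were caught in the wild and ate juniper foliage until dissection, and the lab rats (Rattus norvegicus) were purchased Sprague Dawley animals kept on standard chow. The labels call all animals virgin, whereas the study's methods leave this unknown for the woodrats, and the ages are not given. Species, diet and origin differed together and cannot be told apart in this design.

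Reads of both species were assigned to mouse coding transcripts, so every value is a count of reads that resembled a mouse gene closely enough to be aligned. Woodrats belong to a different rodent family from mice and lab rats, and the lab rat is the closer relative of the mouse. MHC genes are among the fastest diverging genes of mammals. The rat counterparts of H2-A, H2-E, H2-DM and H2-O are recognizable one by one, but class I heavy chain genes have been duplicated and lost separately in each rodent lineage, so that a mouse name such as H2-Q1 or H2-Bl need not stand for the same gene in another species. The paper reported a higher mean substitution rate per read against mouse for woodrats than for lab rats. It described no global mapping bias, and similar counts for chosen transcripts when reads were mapped to their own species. Its text gives no such values for single members. No nucleotide or protein sequence was analysed here, the divergence of each gene from mouse was not measured, and its part in any difference given below was not tested.

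The libraries held between 5439642 and 7932637 counted reads, and 3 reads corresponded to between 0.355 and 0.586 CPM after normalization. The files hold 0 genes without woodrat reads and 809 without lab rat reads, so a pathway gene read only in lab rats would be missing from every count given here. Some animals stood apart. Lab rat 3 was at less than 0.5 times the level of both other lab rats for 13.9% of the tested genes, against 0.627% and 1.03% for lab rats 1 and 2, and woodrat 1 was so for 8.09% of them, against 1.64% and 3.35% for woodrats 2 and 3. Woodrat 1 also had the highest summed smooth muscle markers (151030 CPM, against 72871 and 49288 CPM in woodrats 2 and 3) and the lowest squamous markers of the woodrats. The smooth muscle sum was also higher in every woodrat than in the lab rats, which had between 14904 and 28764 CPM, and its part in the differences was not tested. The labelled tissue was checked with marker lists, with squamous epithelial markers summing to between 18136 and 50320 CPM. Of 16 markers of the glandular stomach, 11 were in the files, and they summed to between 9.30 and 20.9 CPM in woodrats and between 25.9 and 46.8 CPM in lab rats. Of the 3 tested, Krt20 was lower in woodrats, Muc5ac was higher, and Atp4a did not pass the test.

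Of the 42 tested members, 14 were lower in woodrats and 0 were higher at a false discovery rate (FDR) below 0.01 in edgeR's quasi-likelihood test. Over all 12603 tested genes, 9.71% were lower and 10.3% higher by the same rule. The 14 were 7 class II chains, Cd74, Ctss, Ciita, B2m, Psmb8, H2-M3 and Ighm. For 9 of the 14 (Ciita, Ctss, H2-DMa, H2-DMb1, H2-Eb1, H2-Eb2, H2-M3, H2-Ob and Ighm) no more than 1 woodrat reached 1 CPM, so these genes met the low-count filter through the 3 lab rats, which favours a lower value in woodrats. Of the 31 members at 1 CPM in all 6 animals, 5 were lower (H2-Aa, H2-Ab1, Cd74, B2m and Psmb8), against 7.59% of all genes that passed in this way. At an unadjusted p below 0.05, 5 members were higher in woodrats (26.0% of all tested genes were) and 21 lower (23.7%), and DESeq2 at an FDR of 0.01 called 1 higher, Pigr (15.8% of all), and 16 lower (15.3% of all). Every woodrat lay below every lab rat for 22 of the 42 members (27.4% of all tested genes) and above for 6 (28.8%). The median log2 fold change, woodrat over lab rat, was -0.56 over the members and 0.03 over all tested genes. As this is bulk tissue, fewer cells of a type and less RNA per cell cannot be told apart.

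**Figure D1:**
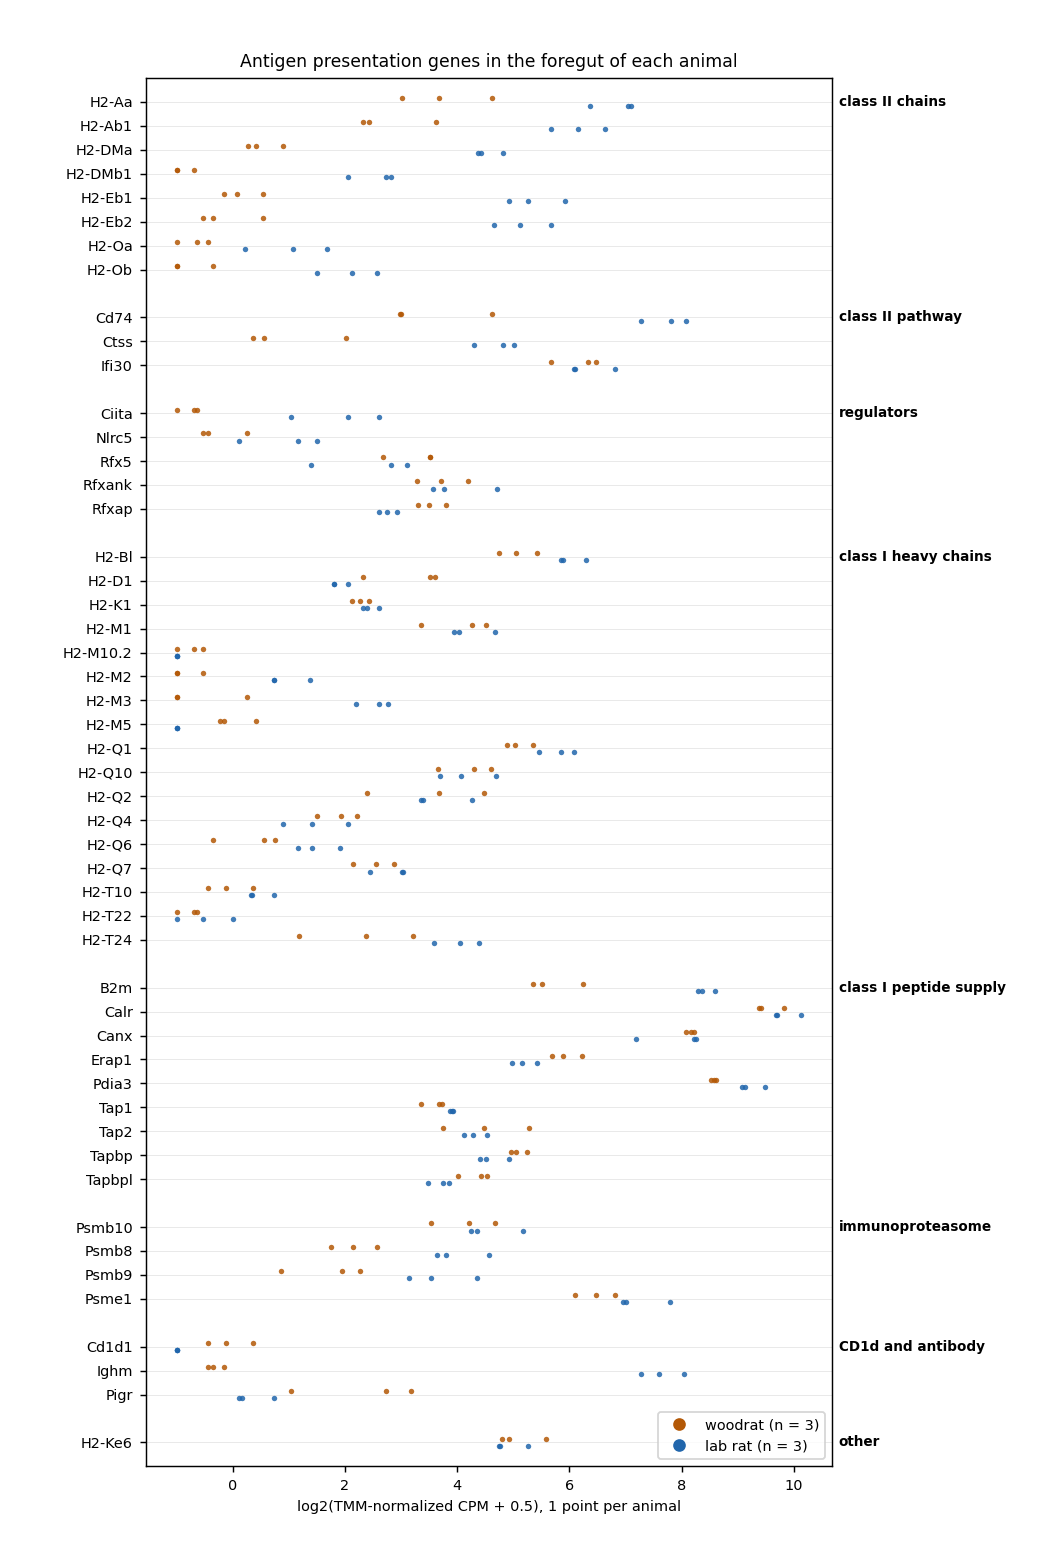
Levels of the 50 antigen presentation genes as log2(TMM-normalized CPM + 0.5) on the x axis, with 1 point per animal, woodrats in orange (n = 3) and lab rats in blue (n = 3), grouped by role. The class II chains, Cd74, Ctss and Ighm form separate clusters by species, whereas most class I heavy chains and the genes of peptide supply other than B2m lie close together.

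All 7 tested class II genes were lower in woodrats, but only H2-Aa and H2-Ab1 reached 1 CPM in all 6 animals, and the other 5 met the filter through the 3 lab rats. Log2 fold changes ran from -6.10 to -2.99 over the 5 with more than 3 woodrat reads. The eighth, H2-Oa, was too low to be tested, with 0, 1 and 2 reads in woodrats 1, 2 and 3 against 13, 4 and 14 in lab rats 1, 2 and 3. Summed over the 8 genes, class II chains had 18.7, 14.6 and 38.8 CPM in woodrats 1, 2 and 3 against 308, 215 and 387 CPM in lab rats 1, 2 and 3. The groups were far apart, with the highest woodrat well below the lowest lab rat. The sum differed by -3.65 ± 0.44 on the log2 scale (SE, edgeR FDR = 0.000924), a level 12.6-fold higher in lab rats. The sum does not depend on how reads were split between closely related chains.

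H2-Aa and H2-Ab1 encode the alpha and beta chains of the class II molecule that is called H2-A in mice and RT1-B in rats. H2-Aa had 12.3, 7.63 and 24.0 CPM in woodrats 1, 2 and 3 against 132, 82.2 and 137 CPM in lab rats 1, 2 and 3. The gene differed by -2.99 ± 0.44 on the log2 scale (SE, edgeR FDR = 0.00184), and without lab rat 3 the FDR was 0.0104 at a log2 fold change of -2.86. H2-Ab1 had 4.49, 4.86 and 11.8 CPM in woodrats against 70.5, 50.6 and 98.6 CPM in lab rats, a difference of -3.35 ± 0.45 on the log2 scale (SE, edgeR FDR = 0.00132). For both chains woodrat 3 was the highest woodrat, and no animal crossed into the range of the other species.

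H2-Eb1 and H2-Eb2 encode beta chains of the other classical class II molecule, called RT1-D in rats. H2-Eb1 had 2, 4 and 8 reads in woodrats 1, 2 and 3 against 307, 181 and 312 reads in lab rats 1, 2 and 3, a difference of -5.98 ± 0.46 on the log2 scale (SE, edgeR FDR = 0.000212). H2-Eb2 had 1, 2 and 8 reads in woodrats against 275, 150 and 262 in lab rats, a difference of -6.10 ± 0.56 on the log2 scale (SE, edgeR FDR = 0.000346). In each lab rat the reads were spread almost evenly over the pair, and because these paralogs are alike their separate values are uncertain.

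H2-DMa and H2-DMb1 encode the DM chaperone, which exchanges peptides on class II, and H2-Ob encodes a chain of DO, which restrains DM mainly in B cells. H2-DMa had 7, 6 and 6 reads in woodrats 1, 2 and 3 against 162, 127 and 143 in lab rats 1, 2 and 3, a difference of -4.58 ± 0.38 on the log2 scale (SE, edgeR FDR = 0.000258). H2-DMb1 had 0, 0 and 1 reads in woodrats against 53, 22 and 32 in lab rats (FDR = 0.000853, edgeR). Corrected for depth, the ratio of the group totals of H2-DMb1 was 115 toward lab rats, with an exact 95% counting interval from 20.2 to 4591. H2-Ob had 0, 2 and 0 reads in woodrats against 44, 14 and 20 in lab rats (FDR = 0.00288, edgeR), a ratio of 42.0 with an interval from 11.2 to 353. These intervals cover counting error only. Both woodrat reads of H2-Ob came from woodrat 2, and the call was lost without lab rat 1 (FDR = 0.0115) and without lab rat 3 (FDR = 0.0125).

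Cd74 encodes the invariant chain, which blocks the groove of new class II molecules and guides them to the endosome. It had 7.42, 7.49 and 24.0 CPM in woodrats 1, 2 and 3 against 225, 154 and 270 CPM in lab rats 1, 2 and 3, a difference of -4.04 ± 0.52 on the log2 scale (SE, edgeR FDR = 0.00116). Ctss encodes cathepsin S, the protease of antigen-presenting cells that cuts the invariant chain. It had 0.781, 0.972 and 3.55 CPM in woodrats against 31.9, 19.2 and 27.7 CPM in lab rats, a difference of -3.82 ± 0.55 on the log2 scale (SE, edgeR FDR = 0.00174). Both genes separated the species completely, again with woodrat 3 as the highest woodrat. Ifi30, which encodes the lysosomal thiol reductase GILT that opens disulphide bonds of antigens, had 72.9 ± 19.9 CPM in woodrats against 82.6 ± 25.8 CPM in lab rats (SD, n = 3) with overlapping groups (FDR = 0.672, edgeR).

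Among the regulators, Ciita encodes the transactivator that switches on class II genes. It had 0, 1 and 1 reads in woodrats 1, 2 and 3 against 45, 22 and 8 in lab rats 1, 2 and 3 (FDR = 0.00251, edgeR). The depth-corrected ratio of its group totals was 40.4 toward lab rats, with an exact 95% counting interval from 10.8 to 339. Its FDR was 0.0115 when woodrat 2 was left out. Nlrc5, the class I counterpart, was too low to be tested, with 1, 5 and 2 reads in woodrats against 14, 14 and 3 in lab rats, and its CPM overlapped between species. Lab rat 3 was the lowest lab rat for both genes. Rfx5, Rfxap and Rfxank encode the RFX complex, which binds class I and class II promoters in all cells. None of the 3 passed the test, with log2 fold changes of 0.72, 0.82 and -0.33 and FDR values of 0.276, 0.0600 and 0.533. Rfxap lay higher in every woodrat, at 13.5, 10.8 and 9.36 CPM against 6.21, 5.62 and 7.13 CPM in lab rats 1, 2 and 3.

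**Figure D2:**
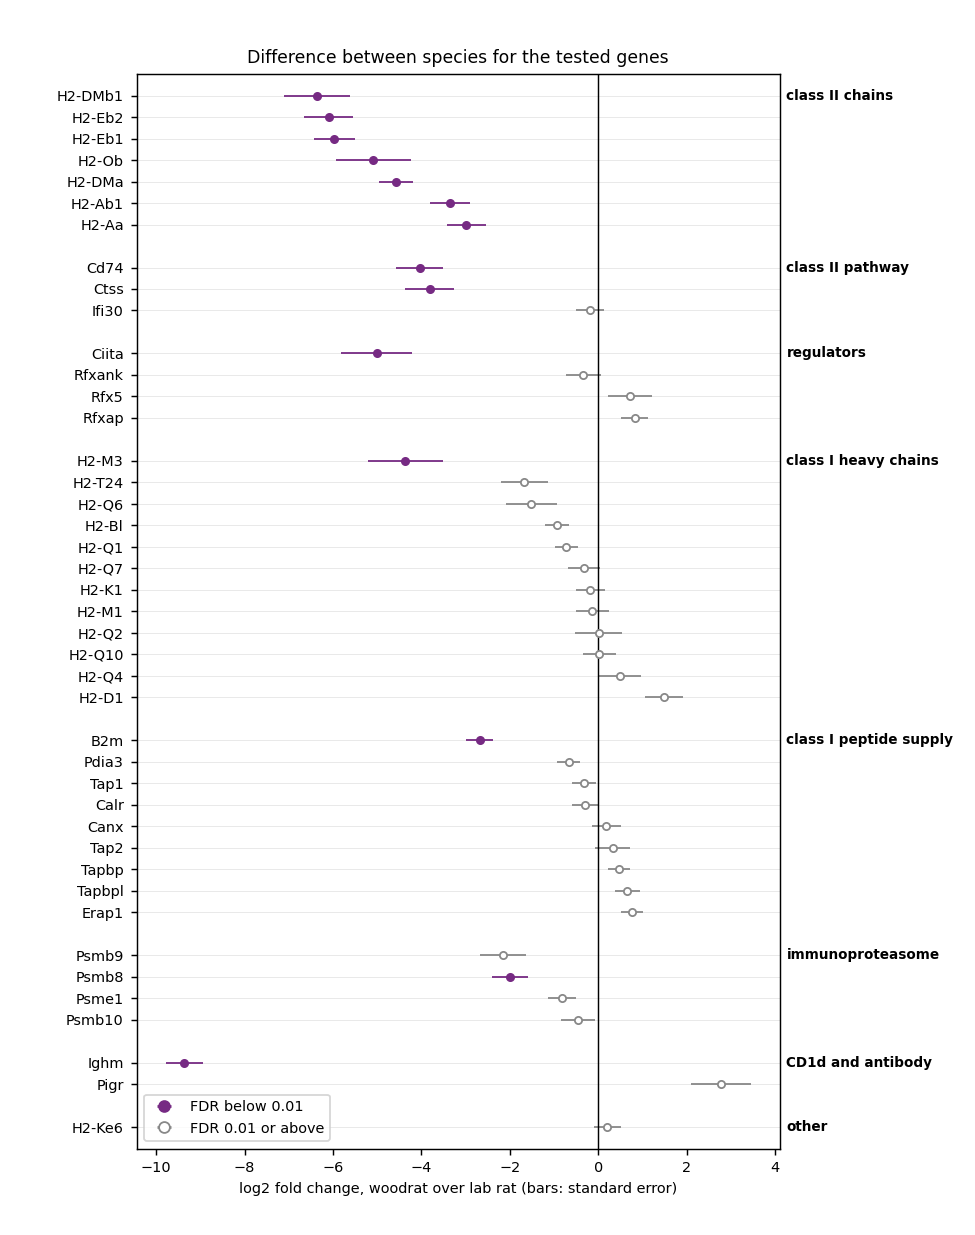
Log2 fold change, woodrat over lab rat, on the x axis for the 42 tested genes, with bars of 1 standard error. Filled points have an FDR below 0.01 (edgeR) and open points do not. All 14 filled points, among them the 7 class II chains, are left of 0, and the positions of H2-DMb1, H2-Ob and Ciita rest on 1 or 2 woodrat reads and depend on the prior count.

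The genes of interferon-gamma signalling that feed these promoters did not differ in one direction. Of 18 listed genes, all tested, 3 were lower in woodrats and 4 higher (9.71% and 10.3% of all tested genes), with a median log2 fold change of -0.01. Irf8, a transcription factor of myeloid and B cells, had 0.781, 0.278 and 0.237 CPM in woodrats 1, 2 and 3 against 11.7, 8.27 and 7.51 CPM in lab rats 1, 2 and 3 (log2 fold change -4.46, FDR = 0.000853, edgeR). No woodrat reached 1 CPM of Irf8, so it met the low-count filter through the lab rats. The receptor chains Ifngr1 and Ifngr2 were lower in woodrats by log2 fold changes of -1.67 and -2.19. The kinases Jak1 and Jak2, which carry the receptor's signal, were higher by 1.61 each, with FDR values of 0.00677 and 0.00335, and Irf9 and Crebbp were higher by 1.84 and 1.71. Irf1, a transcription factor that interferon-gamma induces, had a log2 fold change of -1.03 (FDR = 0.0883).

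The class II genes did not all differ by the same amount. Relative to H2-Aa within each animal, which needs no scaling between libraries, H2-Eb1 had 3.17, 7.27 and 3.94 reads per 100 in woodrats 1, 2 and 3 against 28.9, 36.4 and 43.8 in lab rats 1, 2 and 3. The groups did not overlap, and the mean log2 ratio differed by -2.99, although the woodrat values rest on 2, 4 and 8 reads. Cd74 had 60.3, 98.2 and 100 reads per 100 of H2-Aa in woodrats against 170, 187 and 197 in lab rats, again without overlap. H2-Eb2, H2-DMa and Ctss also lay lower relative to H2-Aa in every woodrat, with log2 differences of -3.43, -1.48 and -1.08. In woodrats 1, 2 and 3 these rest on 1, 2 and 8 reads of H2-Eb2, 7, 6 and 6 of H2-DMa, and 4, 7 and 30 of Ctss. H2-Eb1, H2-Eb2, H2-DMa and Ctss met the low-count filter through the lab rats, which favours a lower ratio in woodrats. The H2-DMa difference was -0.85 without woodrat 3, and that of Ctss -0.71 without woodrat 1. Each of these 5 ratios gave an exact two-sided permutation p of 0.1, the smallest that 3 animals against 3 allow, or 0.121 after Benjamini-Hochberg adjustment over all 17 ratios computed. These ratios to H2-Aa were chosen after the values were seen. H2-Ab1 was the exception, with 36.5, 63.6 and 49.3 reads per 100 in woodrats against 53.4, 61.6 and 71.8 in lab rats (exact permutation p = 0.3). The proportions of the H2-A alpha and beta chains, both at 1 CPM in all 6 animals, overlapped between the species. Those of the H2-E beta chains to H2-Aa did not, but the filter favoured that outcome, so no contrast between the 2 molecules is drawn.

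Most tested markers of macrophages and dendritic cells, which carry class II, were also lower in woodrats. The B lineage list did not hold Ighm, which was itself called lower. Of that list only Sdc1, Blnk and Ighg1 were tested, and 0 of these 3 were called lower in edgeR. Of 20 macrophage and dendritic cell markers, 16 were in the files and 14 were tested, of which 10 were lower in woodrats and 0 higher at an FDR of 0.01 in edgeR (11 and 0 both at an unadjusted p below 0.05 and with DESeq2). Over all tested genes, 9.71% were lower and 10.3% higher at the FDR threshold in edgeR. The shares were 23.7% and 26.0% at the unadjusted p, and 15.3% and 15.8% with DESeq2. The summed level of the list ran from 18.2 to 68.2 CPM in woodrats and from 185 to 258 CPM in lab rats. C1qa and C1qc, complement components made by macrophages, were lower by log2 fold changes of -3.62 and -3.38, and the integrin Itgam and the macrophage receptor Adgre1 by -3.65 and -3.53. Itgam had 0, 5 and 3 reads in woodrats 1, 2 and 3 and Adgre1 had 0, 3 and 5. Itgam and Adgre1 thus met the low-count filter through the lab rats, which favours a lower value in woodrats. The same holds for Aif1, Spi1, Tyrobp and Cd14, which were also called lower and reached 1 CPM in fewer than 3 woodrats. The other markers called lower, Csf1r, C1qa, C1qb and C1qc, reached 1 CPM in all 6 animals. Of all genes that passed in this way, 7.59% were lower. Cd163, Cd68 and Flt3 overlapped between species, at FDR values between 0.765 and 0.899. Among the untested markers, Itgax had 0, 1 and 1 reads in woodrats 1, 2 and 3 against 9, 10 and 5 in lab rats 1, 2 and 3. Zbtb46 had 5, 6 and 4 reads in woodrats against 9, 7 and 3 in lab rats, and its CPM overlapped between species. Of 13 tested pan-leukocyte markers, 7 were lower and 1, Vav1, was higher. The strongest differences were in Cd48 (-5.30), Itgb2 (-4.09), Itgal (-3.61) and Coro1a (-3.57). Cd48 had 2, 4 and 2 reads in woodrats 1, 2 and 3, Itgb2 had 0, 0 and 5, and Itgal 1, 2 and 3. Cd48, Itgb2 and Itgal thus met the low-count filter through the lab rats. So did Ptprc (1, 5 and 4 woodrat reads) and Laptm5 (4, 6 and 9), which were also called lower. The pan-leukocyte markers summed to between 46.1 and 75.3 CPM in woodrats and between 116 and 152 CPM in lab rats. T and natural killer cell markers summed to between 2.13 and 4.88 CPM in woodrats and between 9.76 and 18.1 CPM in lab rats. Of the 4 tested, 1 was lower in woodrats, Cd2. It had 0, 1 and 0 reads in woodrats 1, 2 and 3 and met the filter through the lab rats.

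**Figure D3:**
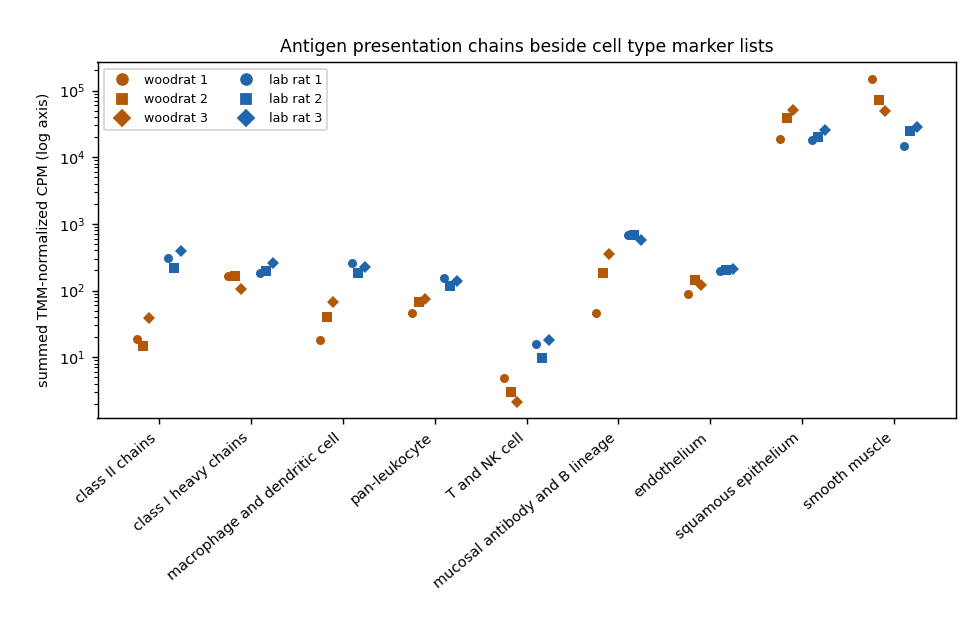
Summed TMM-normalized CPM on a logarithmic y axis for the class II chains, the class I heavy chains and 7 marker lists, with 1 symbol per animal (woodrats orange, lab rats blue). Class II chains, macrophage and dendritic cell markers and pan-leukocyte markers are lower in every woodrat than in any lab rat. So are the class I heavy chains and the T and natural killer cell, B lineage and endothelial lists. Woodrat 3 is the highest woodrat for the class II chains, the macrophage and dendritic cell markers and the pan-leukocyte markers.

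Class II was then set beside the leukocyte markers of the same animals. Per 100 reads of the pan-leukocyte list, class II chains had 40.7, 21.3 and 51.6 reads in woodrats 1, 2 and 3 against 202, 185 and 282 in lab rats 1, 2 and 3, a mean log2 difference of -2.63 (exact permutation p = 0.1, the smallest possible). Relative to the macrophage and dendritic cell list the difference was -1.17, with 103, 35.8 and 56.9 reads per 100 in woodrats against 120, 116 and 173 in lab rats, also without overlap. Relative to Ptprc alone, the common leukocyte antigen CD45, it was -0.27 and the groups overlapped (exact permutation p = 0.9), but Ptprc rested on 1, 5 and 4 reads in woodrats. The difference in class II per leukocyte thus depended on which marker stood for the leukocytes. Its size on the pan-leukocyte list also moved with the list's makeup, to -2.07 without Vav1 and to -1.05 without Vav1, Rac2 and Dock2. These genes were left out with their values known. Vav1 was called higher in woodrats, and Rac2 and Dock2 were not called. Cd37, Cyth4 and Cd53 were not called either and were kept. The part of the number of leukocytes in the class II differences was not tested. Among woodrats, woodrat 3 had the highest level in 7 of the 9 tested genes of the class II chains, Cd74 and Ctss, and in 10 of the 14 macrophage and dendritic cell markers. It was the highest woodrat in 4779 of all 12603 tested genes and in 11 of the 42 tested members. Several of the class II genes rest on few woodrat reads, and this order was not tested.

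Class I heavy chains, in contrast to class II, were read at more similar levels. The files list 17 of these genes, of which 12 were tested, and 1 (H2-M3) was lower in woodrats while 11 did not pass the test. Summed over the 17 genes, heavy chains had 166, 167 and 104 CPM in woodrats 1, 2 and 3 against 185, 198 and 258 CPM in lab rats 1, 2 and 3. Each lab rat lay above each woodrat, but the log2 fold change of -0.56 (standard error 0.28) did not pass the threshold (FDR = 0.146, edgeR). The H2-T23 and H2-DMb2 genes were not analysed here and are in neither sum.

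The mouse genes that took up the class I reads were largely the same in both species. H2-Bl, an H2 class I gene, held 19.6, 25.6 and 25.2% of the heavy chain reads in woodrats 1, 2 and 3 against 31.6, 28.8 and 30.4% in lab rats 1, 2 and 3, a difference of -6.81 percentage points without overlap (exact permutation p = 0.1, the smallest possible, or 0.283 adjusted over the 17 genes). H2-Q1 held 24.0 ± 4.45% in woodrats against 26.1 ± 2.65% in lab rats (SD, n = 3, exact permutation p = 0.6). H2-K1 and H2-D1, the mouse genes of the classical, highly polymorphic class I molecules, held 3.20 ± 1.29% and 6.0 ± 1.46% of the woodrat reads and 2.32 ± 0.204% and 1.51 ± 0.0982% of the lab rat reads (SD, n = 3). Most class I reads of both species were therefore assigned to mouse genes of the Q, M and Bl groups. These shares describe where reads aligned best among mouse paralogs, not which class I genes the animals expressed.

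**Figure D4:**
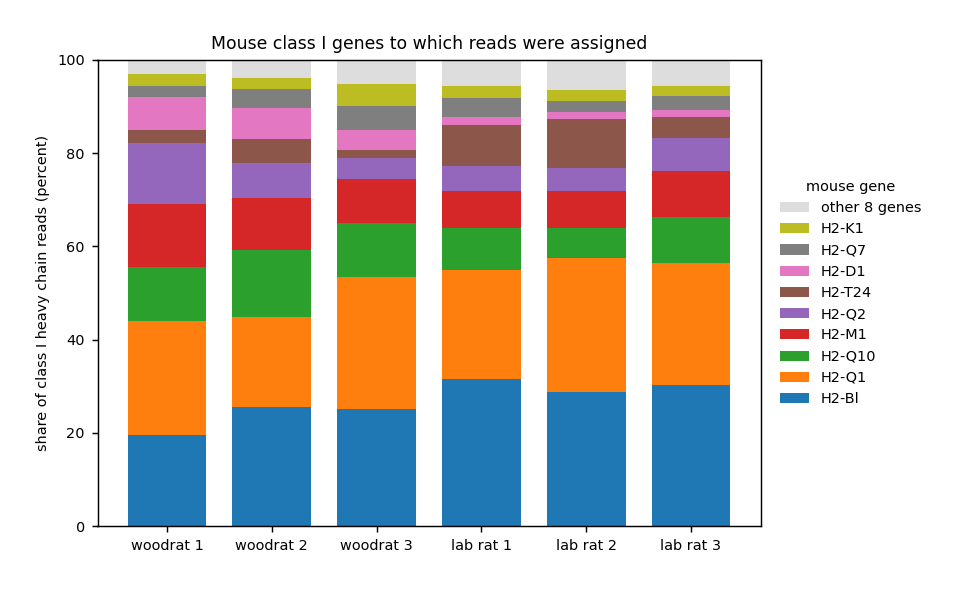
Share of the class I heavy chain reads, in percent of each animal's total on the y axis, that was assigned to each mouse gene, with the 9 leading genes in colour and the other 8 in grey. H2-Bl and H2-Q1 lead in all 6 animals, and H2-D1 takes a larger share in each woodrat than in any lab rat.

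Single class I genes differed more than their sum. H2-M3, whose product presents formylated bacterial peptides, had 0, 5 and 0 reads in woodrats 1, 2 and 3 against 33, 38 and 29 in lab rats 1, 2 and 3, a difference of -4.36 ± 0.86 on the log2 scale (SE, edgeR FDR = 0.00543). All 5 woodrat reads came from woodrat 2, and the FDR rose above 0.01 when woodrat 1 (0.0101) or lab rat 1, 2 or 3 (0.0137, 0.0184 and 0.0211) was left out. Without woodrat 2 no woodrat read remained, and the fitted log2 fold change of -8.15 then depends on the prior count. H2-T24 had 4.69, 8.74 and 1.78 CPM in woodrats against 16.1, 20.5 and 11.6 CPM in lab rats, without overlap, at an FDR of 0.0359. H2-D1 went the other way, with 11.7, 11.0 and 4.50 CPM in woodrats against 2.98, 2.98 and 3.66 CPM in lab rats, and did not pass the test (FDR = 0.0261). H2-Bl (FDR = 0.0242), H2-Q1 (FDR = 0.0545) and H2-Q6 (FDR = 0.0648) lay lower in every woodrat. H2-K1, H2-M1, H2-Q2, H2-Q4, H2-Q7 and H2-Q10 overlapped between species, with FDR values from 0.435 to 0.986.

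The 5 class I genes below the filter differed in which species supplied their few reads. H2-M2 had 1, 0 and 0 reads in woodrats 1, 2 and 3 against 17, 7 and 6 in lab rats 1, 2 and 3. H2-M5 had 2, 6 and 3 reads in woodrats against 0 in each lab rat. H2-T10 had between 2 and 7 reads in every animal. H2-T22 had between 0 and 4 reads, and H2-M10.2 had 2 reads in all, both from woodrats. None of these counts was tested. H2-Ke6, which carries the prefix because it lies in the MHC region but encodes a steroid dehydrogenase, had 35.0 ± 11.1 CPM in woodrats against 30.3 ± 6.62 CPM in lab rats (SD, n = 3, FDR = 0.606, edgeR).

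B2m encodes beta-2-microglobulin, the small chain that every class I heavy chain needs to reach the cell surface. It had 74.8, 45.4 and 40.4 CPM in woodrats 1, 2 and 3 against 328, 314 and 389 CPM in lab rats 1, 2 and 3. The gene differed by -2.68 ± 0.31 on the log2 scale (SE, edgeR FDR = 0.000833), a level 6.43-fold higher in lab rats. Per 100 heavy chain reads, B2m had 45.1, 27.3 and 38.9 reads in woodrats against 178, 159 and 151 in lab rats, a mean log2 difference of -2.16 (exact permutation p = 0.1, the smallest possible). The proportion of light to heavy chain reads did not overlap between the species. This ratio was chosen after the values were seen, and it compares a single-copy gene with a family whose reads were spread over mouse paralogs.

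The other 8 genes of peptide supply did not pass the test, at FDR values from 0.0378 to 0.672. Tap1 and Tap2 form the peptide transporter, and had 11.5 ± 1.60 and 24.4 ± 13.0 CPM in woodrats against 14.4 ± 0.263 and 19.5 ± 2.98 CPM in lab rats (SD, n = 3). Tapasin (Tapbp) and its relative Tapbpl, which edit the peptides on class I, had log2 fold changes of 0.47 (FDR = 0.173) and 0.66 (FDR = 0.0919), with every woodrat above every lab rat. Erap1, the aminopeptidase that trims peptides to length, came closest to the threshold, with 58.8, 74.1 and 51.3 CPM in woodrats 1, 2 and 3 against 31.0, 35.1 and 42.4 CPM in lab rats 1, 2 and 3, a log2 fold change of 0.77 (FDR = 0.0378). The general folding factors Calr, Canx and Pdia3, which also belong to the peptide loading complex, were abundant in both species. Calr had 751 ± 131 CPM in woodrats against 926 ± 166 CPM in lab rats, and Canx had 285 ± 12.6 and 250.3 ± 90.7 CPM. Lab rat 3 had 146 CPM of Canx, against 299.8 and 306 CPM in lab rats 1 and 2. Pdia3 had 381 ± 11.4 CPM in woodrats against 606 ± 96.7 CPM in lab rats without overlap (FDR = 0.0701). Of 14 further genes of class I loading and trimming, 1 was lower, Tpp2 (log2 fold change -1.16, FDR = 0.00479), a cytosolic peptidase, and 0 were higher. At an unadjusted p below 0.05 in edgeR 4 were lower and 1 higher, and with DESeq2 3 were lower and 1 higher. Over all tested genes, 9.71% were lower and 10.3% higher at the FDR threshold in edgeR. The shares were 23.7% and 26.0% at the unadjusted p, and 15.3% and 15.8% with DESeq2.

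The immunoproteasome arises when Psmb8, Psmb9 and Psmb10 replace the constitutive catalytic subunits Psmb5, Psmb6 and Psmb7. Psmb8 had 3.91, 5.41 and 2.84 CPM in woodrats 1, 2 and 3 against 11.9, 13.4 and 23.3 CPM in lab rats 1, 2 and 3, a difference of -1.99 ± 0.40 on the log2 scale (SE, edgeR FDR = 0.00595). This call needed all 6 animals, since leaving out any one of them raised the FDR to between 0.0127 and 0.0172. The values without each animal kept the direction, from -2.31 without woodrat 2 to -1.64 without lab rat 3. Psmb9 had 4.30, 3.33 and 1.30 CPM in woodrats against 11.0, 8.27 and 19.8 CPM in lab rats, without overlap, at a log2 fold change of -2.15 and an FDR of 0.0125. Psmb10 had 18.0 ± 6.99 CPM in woodrats against 24.7 ± 9.53 CPM in lab rats (SD, n = 3, FDR = 0.373), with overlapping groups. Psme1, the alpha subunit of the PA28 activator, had 112, 88.7 and 67.8 CPM in woodrats against 124, 128 and 222 CPM in lab rats, without overlap (FDR = 0.0689).

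Set against its constitutive partner in the same animal, Psmb8 had 2.65, 3.94 and 2.02 reads per 100 of Psmb5 in woodrats 1, 2 and 3 against 8.46, 9.22 and 9.57 in lab rats 1, 2 and 3. Psmb9 had 2.44, 2.12 and 0.888 reads per 100 of Psmb6 in woodrats against 5.52, 4.26 and 5.64 in lab rats. Both ratios were lower in every woodrat, with log2 differences of -1.72 and -1.62 (exact permutation p = 0.1 each, the smallest possible). Psmb10 had 13.6, 10.9 and 6.86 reads per 100 of Psmb7 in woodrats against 9.51, 10.1 and 11.4 in lab rats, and the mean log2 difference of -0.03 was smaller than the spread over animals (exact permutation p = 0.9). For the 3 subunits summed, the mean log2 difference was -0.67 (exact permutation p = 0.1), and it was -0.38 without woodrat 3. The ratios of Psmb8 and Psmb9 thus did not overlap between the species, whereas those of Psmb10 did overlap. Of the 16 constitutive proteasome genes listed, 0 were called in either direction at an FDR of 0.01 in edgeR (20.0% of all tested genes were). In DESeq2 2 were lower (15.3% of all). At an unadjusted p below 0.05 in edgeR 4 were lower (23.7% of all) and 1 higher (26.0% of all). The log2 fold changes of the 16 ran from -1.26 to 0.75, with a median of -0.52.

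**Figure D5:**
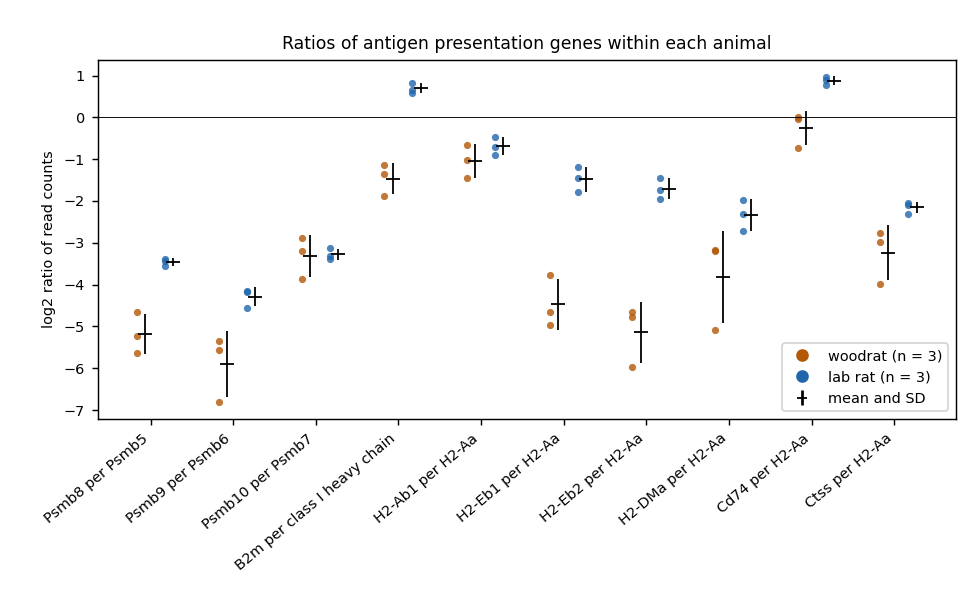
Log2 ratio of read counts within each animal on the y axis for 10 pairs of antigen presentation genes, with woodrats in orange and lab rats in blue (n = 3 each) and black bars for the mean and SD. Psmb10 per Psmb7 and H2-Ab1 per H2-Aa overlap between species, whereas the other 8 ratios are lower in every woodrat.

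Ighm, the heavy chain gene of IgM, showed the largest difference of the members. It had 2 reads in each woodrat and 1558, 939 and 1370 reads in lab rats 1, 2 and 3, or 193, 155 and 264 CPM. The gene differed by -9.37 ± 0.42 on the log2 scale (SE, edgeR FDR = 5.5e-05). Apart from Sdc1, the listed genes of the B lineage were not read at a like level in lab rats. In lab rats 1, 2 and 3 the B cell receptor gene Cd79a had 2, 0 and 0 reads, and its partner Cd79b had 0 in each. Jchain, which joins IgM and IgA into polymers, had 2, 1 and 0 there. The light chain gene Igkc had 10, 2 and 5 reads and the IgA heavy chain gene Igha 8, 3 and 7. The high Ighm counts of lab rats thus came without reads of the receptor partners or of the light chain at a comparable number. In woodrats Cd79a had 5, 11 and 3 reads, Cd79b 0, 4 and 4, Jchain 4, 16 and 10, Igkc 2, 17 and 0, and Igha 1, 0 and 0. The IgG heavy chain gene Ighg1 had 9, 11 and 29 reads in woodrats against 49, 20 and 31 in lab rats. Its CPM overlapped between species (FDR = 0.0739, edgeR). Of 17 B lineage genes besides Ighm, 11 were in the files and 3 were tested. Of these, 0 were lower and 1 higher, the adaptor gene Blnk (9.71% and 10.3% of all tested genes). In this list 2 were lower at an unadjusted p below 0.05 in edgeR (23.7% of all) and 1 with DESeq2 (15.3% of all). The summed level of that list, between 46.1 and 348 CPM in woodrats and between 565 and 690 CPM in lab rats, was mostly Sdc1 (32.0 to 317 and 554 to 679 CPM), which squamous epithelium also makes.

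Pigr, which encodes the receptor that carries IgA and IgM across epithelia, lay in the opposite direction. It had 8, 44 and 72 reads in woodrats 1, 2 and 3 against 5, 7 and 3 in lab rats 1, 2 and 3, or 1.56, 6.11 and 8.53 CPM against 0.620, 1.16 and 0.578 CPM. The log2 fold change of 2.78 (standard error 0.67) did not pass the threshold (FDR = 0.0126, edgeR), whereas DESeq2 gave an FDR of 0.00107, and without woodrat 1 the edgeR FDR was 0.00286. Cd1d1, which presents lipids to natural killer T cells, had 4, 3 and 2 reads in woodrats against 0 in each lab rat, where a count of 0 allows up to between 0.372 and 0.578 CPM per library. It was too low to be tested.

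The endosomal enzymes and uptake receptors around class II were described from lists as well. Of 13 tested further genes of class II processing, 1 was lower in woodrats, Ctsl, and 0 were higher in edgeR. At an unadjusted p below 0.05 in edgeR 6 were lower and 4 higher, and with DESeq2 6 were lower and 1 higher. Over all tested genes, 9.71% were lower and 10.3% higher at the FDR threshold in edgeR. The shares were 23.7% and 26.0% at the unadjusted p, and 15.3% and 15.8% with DESeq2. Ctsl encodes cathepsin L, an endosomal protease of epithelia and macrophages, and had 59.8, 71.8 and 106 CPM in woodrats 1, 2 and 3 against 477, 279 and 251 CPM in lab rats 1, 2 and 3 (log2 fold change -2.08, FDR = 0.00308, edgeR). Of 16 co-stimulation and uptake genes, 11 were in the files and 5 were tested, of which 3 were lower, the Fc receptor genes Fcgr3 (-4.59), Fcer1g (-3.45) and Fcgr2b (-2.29). Woodrats 1, 2 and 3 had 3, 1 and 5 reads of Fcgr3, 2, 9 and 14 of Fcer1g and 5, 4 and 7 of Fcgr2b. No woodrat reached 1 CPM of Fcgr3 or Fcgr2b, so both met the low-count filter through the lab rats. The co-stimulatory genes Cd40 and Cd86 were too low to be tested, with 3 and 1 reads over all woodrats and 20 and 8 over all lab rats.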

How the data were processed

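Total foregut RNA of 6 animals was sequenced by the authors as stranded polyA libraries, trimmed with Trimmomatic per the labels and aligned with cross_match to mouse coding transcripts of GENCODE M7. Read counts per mouse gene were deposited by the authors, 1 file per animal, without normalization. The labels name the build mm9. Reads on the correct strand went to the gene with the best alignment score, and identifiers of paralogs, pseudogenes and overlapping genes that shared reads were removed, so that the final counts were unique.

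Counts were scaled by TMM and tested with the quasi-likelihood F-test of edgeR 4.0.16 in R 4.3.3, woodrat over lab rat. The tested genes reached 1 CPM, scaled by library total before TMM, in 3 or more animals. The prior count was 0.125, with Benjamini-Hochberg adjustment over all tested genes and an FDR threshold of 0.01. Ratios and shares were compared by exact two-sided permutation over animals, which cannot go below 0.1. DESeq2 1.42.0 was an alternative. The tests were checked on simulated data. Animals of the same number were not taken as pairs (correlations of deviations -0.301, -0.094 and -0.291).

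The members and gene lists were chosen with earlier results of these data known. All members were described. Of the lists, called genes with the largest fold changes were named. Ptprc, Irf1, Itgax, Zbtb46, Cd163, Cd68, Flt3, Cd37, Cyth4, Cd53, Cd40, Cd86, Sdc1 and the B lineage genes were picked after their values were seen. Aif1, Spi1, Tyrobp, Cd14, Csf1r, C1qb and Laptm5 were named after their values were seen as well. So were the genes left out of the pan-leukocyte list.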

Additional observations from a re-analysis of the deposited data

How the results depend on the processing

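The number of members lower in woodrats (14) lay between 10 and 17 under the alternative filters, scalings, thresholds and DESeq2, fell in the range of 10 to 13 when 1 animal was left out, and was 21 at an unadjusted p below 0.05 (23.7% of all tested genes), chosen after seeing the data. With class I and class II chains summed it was 7 of 25, since the sum takes the place of several genes. The number higher (0) was 1 with DESeq2, 3 at an FDR of 0.05, 5 at an unadjusted p below 0.05, 1 with both woodrat 1 and lab rat 3 left out, and 0 to 1 with 1 animal left out. With the replicate number as a block, which did not pair the animals, 10 members were lower and 0 higher, and the log2 fold changes of the class II and class I sums were -3.74 and -0.57 (edgeR FDR = 0.00438 and 0.269). The block ended the calls of Psmb8, H2-M3, H2-Ob and Ciita (edgeR FDR = 0.0299, 0.0194, 0.0188 and 0.0129). Except for DESeq2 and the unadjusted p, the shares of all tested genes called under these alternative settings are not given here. The member counts therefore cannot be set against them.

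Signs turned only in genes far from the threshold, and the cause was not tested. H2-Q10 was at -0.0075 with DESeq2's size factors and -0.0076 with DESeq2. H2-Q2 was at -0.013 with DESeq2's size factors, -0.014 with total counts, -0.11 with the block, -0.0091 with DESeq2 and -0.23 without woodrat 1 and lab rat 3, where Canx was at -0.078. With 1 animal left out, the ranges that crossed 0 were -0.58 to 0.42 for H2-Q2, -0.25 to 0.35 for H2-Q10, -0.087 to 0.35 for Canx, -0.21 to 0.64 for Tap2, -0.13 to 0.40 for H2-Ke6, -0.34 to 0.11 for Ifi30, -0.39 to 0.15 for H2-M1 and -0.60 to 0.11 for Rfxank, and the H2-Q1 share ran from -4.27 to 0.159 percentage points. The class II sum stayed between -4.19 and -3.44 and the class I sum between -0.70 and -0.36. Without woodrat 3, H2-D1 was higher in woodrats (log2 fold change 1.82, edgeR FDR = 0.00537), and DESeq2 also called H2-T24 and Psmb9. With a filter at 5 CPM, 33 members were tested. Counts of a few reads in woodrats limit H2-DMb1, H2-Ob, Ciita, H2-Eb1, H2-Eb2 and H2-M3.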

Other observations

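Outside the antigen presentation genes, 2 of 10 endothelial markers were lower in woodrats and 0 were higher at an FDR of 0.01 in edgeR (5 and 0 at an unadjusted p below 0.05, 4 and 0 with DESeq2). Over all tested genes, 9.71% were lower and 10.3% higher at the FDR threshold in edgeR. The shares were 23.7% and 26.0% at the unadjusted p, and 15.3% and 15.8% with DESeq2. The endothelial markers summed to 87.9, 144 and 120.1 CPM in woodrats 1, 2 and 3 and 197, 199.8 and 208 CPM in lab rats 1, 2 and 3.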
